A study of Mus musculus with 4 samples.

Results

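The 32 genes described here encode the contractile and smooth muscle machinery of myoepithelial cells, and were followed in single-cell RNA-seq of the mouse mammary gland. They were chosen by name, as rows of the gene table whose symbol equals a listed member. All 32 were found among the 27998 genes of the deposited matrix. The study compared FACS-sorted mammary cells of control mice with those of mice labelled Zeb1 MSKO, with 1 library of each at 8 weeks of age and 1 of each at 9 weeks, all on the C57BL/B6 strain. Zeb1 encodes a zinc-finger repressor best known from epithelial-mesenchymal transition. The labels do not spell out MSKO, the Cre line, the alleles of the controls, the sorted surface markers or the number of animals per library. There were 2 libraries per genotype, so a p-value speaks only for the scatter of 4 libraries, some of which may be technical.

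Myoepithelial cells form the basal layer of mammary ducts and alveoli. They carry a smooth muscle apparatus and squeeze milk from the alveoli when oxytocin binds its receptor. As in smooth muscle, the receptor raises calcium, calmodulin switches on myosin light chain kinase, the phosphorylated light chain lets myosin pull on actin, and a phosphatase reverses the step. Many genes of this apparatus carry CArG boxes, short elements bound by serum response factor (SRF), whose coactivators are myocardin and the related Mkl factors.

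To show what such elements look like in the genes described below, the 250 bases before the transcription start are given for 4 members, from RefSeq (GRCm38.p6), 5′ to 3′ on the gene's strand. Acta2 is shown because it was the most abundant member, and Myl9, Myl6 and Vcl because their windows held a CArG box. Capitals mark a CArG box (the pair CC, then 6 bases that are A or T, then GG) or a CArG-like element in which 1 of the 6 core bases is C or G. The second, looser form was added after the windows had been searched for the first.
Acta2 (chr19:34255374-34255623, minus strand): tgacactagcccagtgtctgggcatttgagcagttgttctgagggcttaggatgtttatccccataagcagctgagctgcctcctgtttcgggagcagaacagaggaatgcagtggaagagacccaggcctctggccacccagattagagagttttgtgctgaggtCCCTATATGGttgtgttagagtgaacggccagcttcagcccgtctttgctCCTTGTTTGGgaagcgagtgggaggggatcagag
Myl9 (chr2:156775214-156775463, plus strand): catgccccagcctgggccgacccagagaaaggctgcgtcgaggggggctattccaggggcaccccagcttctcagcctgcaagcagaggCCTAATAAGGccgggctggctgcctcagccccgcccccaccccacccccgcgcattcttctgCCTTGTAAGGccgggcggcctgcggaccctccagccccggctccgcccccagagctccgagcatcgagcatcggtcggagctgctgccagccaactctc
Myl6 (chr10:128493010-128493259, minus strand): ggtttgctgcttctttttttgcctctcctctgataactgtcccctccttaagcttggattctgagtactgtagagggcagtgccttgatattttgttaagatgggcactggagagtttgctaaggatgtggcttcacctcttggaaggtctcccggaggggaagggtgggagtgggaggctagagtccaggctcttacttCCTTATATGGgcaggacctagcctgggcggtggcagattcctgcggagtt
Vcl (chr14:20929148-20929397, plus strand): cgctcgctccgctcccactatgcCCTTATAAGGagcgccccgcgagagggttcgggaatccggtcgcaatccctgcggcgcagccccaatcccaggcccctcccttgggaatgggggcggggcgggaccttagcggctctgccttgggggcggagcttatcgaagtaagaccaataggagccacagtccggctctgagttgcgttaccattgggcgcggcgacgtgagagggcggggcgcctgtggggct
The Acta2 window held no strict CArG box and 2 CArG-like elements, whose first bases lie at positions -84 and -34 from the start. Myl9 had a CArG box at position -161 and a CArG-like element at -99, Myl6 a box at -50 in the second of its 2 windows, and Vcl a box at -227. RefSeq windows of 300 bases (250 before the start and 50 from the start on) were at hand for 28 of the 32 members, and not for Actg2, Myh11, Tagln and Myocd. A CArG box stood in a window of 4 of these 28 members (14.3%), namely Myl9, Myl6, Vcl and Filip1l, against 1.81% of 27025 genes. A CArG-like element stood in a window of 5 (17.9%), namely Acta2, Myl9, Pdlim3, Synm and Lpp, against 9.70% of all genes. The E-box that ZEB1 is known to bind, CACCTG or its reverse complement CAGGTG, stood in a window of 7 of the 28 members (25%) and of 22.6% of all genes. Both strands were read, a CArG-like element is never a strict CArG box, and a match is a description of the letters, not of binding.

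The libraries held 7627 to 9790 cell barcodes and 80853204 to 122122443 unique molecular identifiers (UMIs, 1 per captured transcript end). Cells were placed in classes by marker genes, none of them a member: basal-gated cells by the keratins Krt5 and Krt14, 2 luminal classes by Krt8 and Krt18 with progenitor or hormone-sensing markers, and stromal classes by their own markers. The basal gate held 1592 control and 4455 Zeb1 MSKO cells at 8 weeks, and 1902 control and 2259 Zeb1 MSKO cells at 9 weeks. There, 7 of 7 listed basal markers were higher than in luminal progenitor-gated cells (edgeR, adjusted p under 0.05), as were 28.1% of all genes. Krt5 and Krt14 are among the 7, and for them the gate itself fixed this outcome. The Zeb1 MSKO library at 8 weeks stood apart: 63.3% of its epithelial-gated cells were basal (95% Wilson interval 62.1 to 64.4%), against 20.2 to 27.9% in the other libraries. It also held 174 cells of a skin and hair class, of which the other libraries held at most 1, and its median UMI count per basal-gated cell was 5580, against 7707 to 7938. Between 302 and 372 barcodes of each library also occurred in another library. Zeb1 itself did not check the labels: basal-gated cells had 3 and 16 UMIs (0.224 and 0.569 CPM) at 8 weeks and 0 and 3 UMIs (0 and 0.156 CPM) at 9 weeks in control and Zeb1 MSKO. Luminal progenitor-gated cells had 11 and 9 UMIs (0.306 and 0.683 CPM) at 8 weeks and 3 and 30 UMIs (0.125 and 1.16 CPM) at 9 weeks, higher per UMI in the libraries labelled Zeb1 MSKO. Fibroblast-gated cells, which express it, had 59.0 and 72.9 CPM at 8 weeks and 82.7 and 54.4 CPM at 9 weeks.

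Basal-gated cells carried the apparatus at high level. Levels are in CPM, the UMIs of a gene over all UMIs of the class in a library, scaled to the same total. Each 3′ UMI stands for 1 transcript whatever its length, so genes were compared without dividing by length. The 32 genes together made up 29650.4 and 19271 CPM in control and Zeb1 MSKO basal-gated cells at 8 weeks, and 33933 and 35486 CPM at 9 weeks, which is 1.93 to 3.55% of all their UMIs. The same sum was 2264 to 2940 CPM in luminal progenitor-gated cells, 1484 to 2386 CPM in hormone-sensing-gated cells and 2845 to 4056 CPM in fibroblast-gated cells. Every basal value of the sum lay above every value of these 3 classes. In edgeR's quasi-likelihood test with the library as a block, 31 members could be tested and all 31 were higher in basal-gated than in luminal progenitor-gated cells, where 28.1% of all 13755 genes were. The 31 were also higher than in hormone-sensing-gated cells (background 33.9%), and 28 were higher than in fibroblast-gated cells (background 27.4%). The median log2 fold change of the 31 was 4.73, 5.56 and 3.34 in these 3 comparisons. The genes were chosen with earlier results of these data known, so these counts are a description and not an open test.

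**Figure D1:**
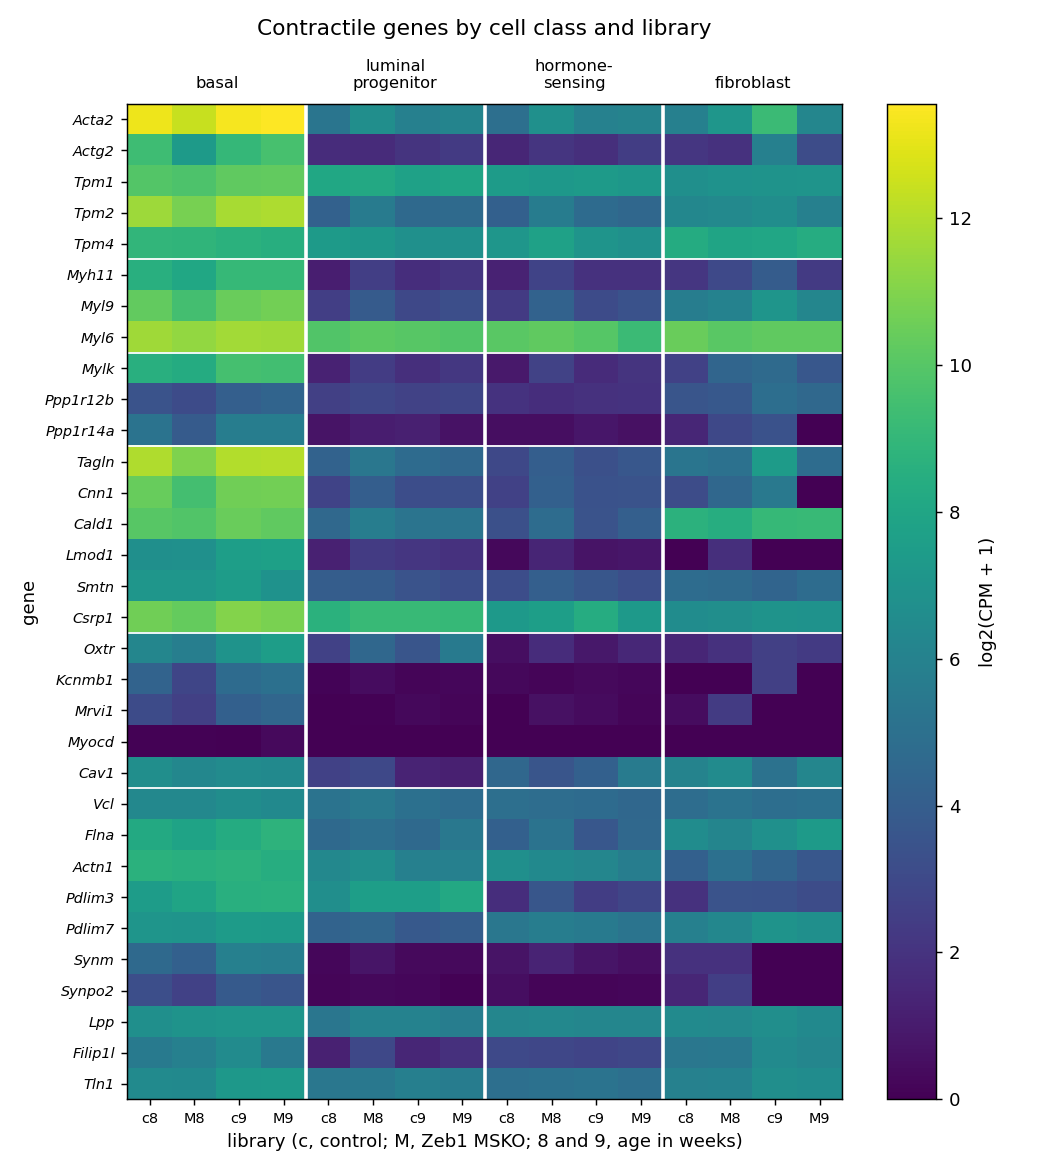
Level of each of the 32 genes as log2(CPM + 1) (colour) in 4 cell classes (column blocks), with 1 column per library and genes grouped by role from filaments at the top to anchors at the bottom. The basal block is the brightest for most rows, with Acta2 at 5463 to 12007 CPM, and Myl6, Tpm4, Lpp and Csrp1 are seen in every class.

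Filament genes led the list. Acta2, the smooth muscle alpha actin (ENSMUSG00000035783, chr19:34241090-34255590, minus strand, GRCm38 with GENCODE vM21 as for the other genes), stood at 9562, 5463, 10734 and 12007 CPM in the 8-week control, 8-week Zeb1 MSKO, 9-week control and 9-week Zeb1 MSKO library, the order used from here on. Its luminal progenitor values were 38.2, 101, 59.0 and 68.6 CPM, and the log2 fold change between the classes was 7.29 (SE 0.59, edgeR adjusted p = 3.85e-08). The Zeb1 MSKO library at 8 weeks was the lowest of the 4 in basal-gated cells and the highest in luminal progenitor-gated cells. Actg2, the gamma actin of enteric smooth muscle, was at 657, 164, 525 and 771 CPM, and thus spread 4.70-fold between libraries. Of the tropomyosins, which lie along the actin filament, Tpm2 was at 3073, 1727, 3502 and 3758 CPM. Tpm1 was at 975, 873, 1225 and 1247 CPM. Their likeness ended outside the basal gate, where Tpm1 kept 217 to 285 CPM in luminal progenitor-gated cells and Tpm2 had 17.4 to 48.1 CPM. Tpm4, a tropomyosin of non-muscle cells, was shared with the stroma, with 477, 468, 404 and 364 CPM in basal-gated and 239 to 334 CPM in fibroblast-gated cells (log2 fold change 0.76, SE 0.16, edgeR adjusted p = 0.00118).

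The motor genes split in the same way. Myh11, the smooth muscle myosin heavy chain, was at 372, 272, 530.5 and 535 CPM in basal-gated cells and at 1.20 to 4.71 CPM in luminal progenitor-gated cells. Myl9, the regulatory light chain that the kinase phosphorylates, was at 1261, 725, 1411 and 1649 CPM. Both were lowest in the Zeb1 MSKO library at 8 weeks. Myl6, the essential light chain shared with non-muscle myosin, was at 3125, 2573, 3246 and 3093 CPM, and at 923 to 1108 CPM in luminal progenitor-gated cells. Its basal excess, at a log2 fold change of 1.59 (SE 0.16, edgeR adjusted p = 6e-07), was far smaller than the 7.38 (SE 0.37, adjusted p = 2.61e-10) of Myh11.

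The switch on the light chain is made of a kinase, a phosphatase and the inhibitor of that phosphatase. Mylk, the kinase, was at 373, 327, 748 and 703 CPM in basal-gated cells, so that both 9-week libraries lay above both 8-week libraries. It had the largest log2 fold change of the 31 tested members against luminal progenitor-gated cells, at 7.65 (SE 0.39, edgeR adjusted p = 3.36e-10). Ppp1r12b, a targeting subunit of the phosphatase, was low, at 7.58 to 19.6 CPM, and was the member with the lowest basal level relative to fibroblast-gated cells, where it stood at 10.8 to 29.2 CPM (log2 fold change -0.16, SE 0.26, adjusted p = 0.646). Ppp1r14a, which encodes the phosphatase inhibitor CPI-17, was at 14.1 to 52.7 CPM.

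The proteins that bind and tune the thin filament came next in abundance. Tagln, or transgelin, was at 3981, 1936, 4025 and 4166 CPM, and Cnn1, or calponin, at 1348, 732, 1588 and 1622 CPM. In both, the Zeb1 MSKO library at 8 weeks lay far below the other 3 libraries. Cald1, or caldesmon, was at 1038, 946, 1383 and 1228 CPM, and Csrp1, a LIM protein of the filament, at 1547, 1314, 2080 and 1796 CPM. Neither of these was confined to the basal gate: Cald1 was at 353 to 555 CPM in fibroblast-gated cells and Csrp1 at 399 to 563 CPM in luminal progenitor-gated cells. Lmod1, a smooth muscle actin nucleator, was at 106 and 110.3 CPM at 8 weeks and at 191 and 205 CPM at 9 weeks, with no overlap between the ages. Smtn, or smoothelin, was at 136, 139, 179 and 119 CPM.

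The receptor, channel and regulator members were less abundant. Oxtr, the oxytocin receptor (ENSMUSG00000049112, chr6:112473683-112489943, minus strand), was at 73.1, 55.4, 125 and 188 CPM in basal-gated cells, with both 9-week libraries above both 8-week libraries. Kcnmb1, the beta subunit of the calcium-activated potassium channel, was at 18.8, 6.23, 26.1 and 30.5 CPM. Mrvi1, a substrate of cGMP-dependent kinase at the calcium store, was at 7.63, 4.87, 16.7 and 21.3 CPM. Myocd, the myocardin coactivator, was all but undetected, with 1, 2, 0 and 5 UMIs, or at most 0.260 CPM, where a count of 0 in the control library at 9 weeks allows up to 0.178 CPM, and it could not be tested. Cav1, the caveola coat protein, was at 104, 75.7, 92.9 and 85.4 CPM in basal-gated cells, at 34.0 to 92.6 CPM in fibroblast-gated cells and at 145 and 153 CPM in the 345 and 364 endothelial-gated cells at 8 weeks. Endothelial-gated cells at 9 weeks, only 8 and 7 in number, had Cav1 at 781 and 1007% of the basal level in control and Zeb1 MSKO. The Cav1 difference between basal-gated and fibroblast-gated cells was 0.51 on the log2 scale (SE 0.49, edgeR adjusted p = 0.407).

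The anchors tie filaments to adhesion plaques and to the intermediate filaments. The crosslinker Actn1 was at 402, 375, 421 and 347 CPM in basal-gated cells and Flna, or filamin A, at 297, 229, 319 and 437 CPM. The LIM proteins Pdlim3 and Pdlim7 were at 182, 239, 372 and 392 CPM and at 135, 128, 174 and 165 CPM. Lpp, a further LIM protein of the plaques, was at 108, 123, 133 and 132 CPM. Of these 5, Flna, Pdlim3, Pdlim7 and Lpp were higher in both 9-week than in both 8-week libraries and Actn1 was not, and Actn1 and Lpp kept within 1.24-fold over the 4 libraries. The share of all genes with such an order by age was not counted, so none of these orders is read as particular to the members. Of all genes, 19.3% were under an unadjusted p of 0.05 for age in edgeR. The plaque proteins talin and vinculin were of the same order, with Tln1 at 90.2, 85.3, 149 and 157 CPM and Vcl at 80.2, 78.1, 97.3 and 85.8 CPM. Filip1l was at 44.7, 59.6, 92.2 and 44.3 CPM, with no order by age or genotype. It was the third member, beside Ppp1r12b and Cav1, that was not called against fibroblast-gated cells (log2 fold change 0.31, SE 0.35, edgeR adjusted p = 0.489). Synm, the intermediate filament protein synemin, was at 23.4, 16.8, 59.6 and 55.2 CPM, and Synpo2 at 5.23 to 13.5 CPM.

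**Figure D2:**
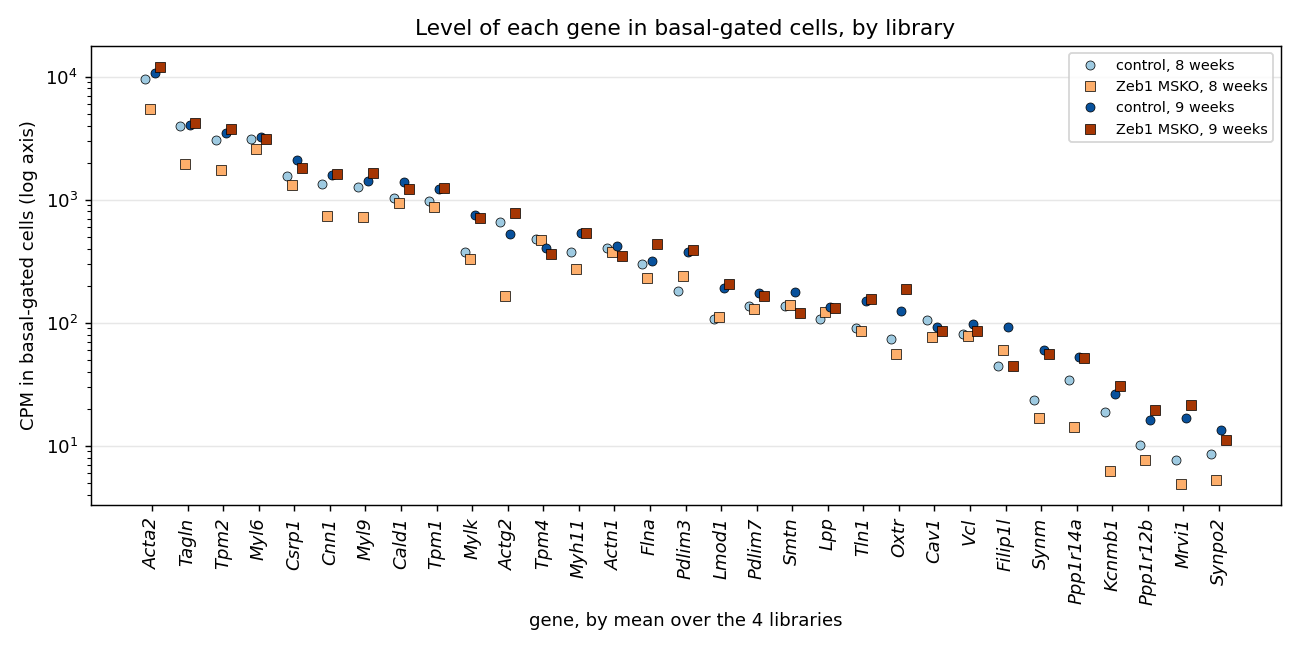
CPM (log axis) of 31 of the genes in basal-gated cells, with 1 point per library and Myocd, at 0 to 0.260 CPM, left out. The light square, Zeb1 MSKO at 8 weeks, is the lowest point for Acta2, Tagln, Tpm2, Cnn1, Myl9 and Actg2, while Tpm4, Actn1 and Vcl show little spread.

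Outside the basal gate the members were spread along a range, from a small share of the basal level to much of it. For each library, the luminal level was taken as a percentage of the basal level of the same gene. In luminal progenitor-gated cells, 13 of the 31 members with basal counts in every library had a median under 2%, a limit set after seeing the values: Acta2, Actg2, Tpm2, Myh11, Myl9, Mylk, Tagln, Cnn1, Lmod1, Kcnmb1, Mrvi1, Synm and Synpo2. Their median percentage was 0.425, 2.1, 0.550 and 0.537% in the 4 libraries. Acta2 stood at 0.399, 1.85, 0.550 and 0.571%, and Cnn1 at 0.425, 2.13, 0.506 and 0.536%. Over the 13 genes the share ran from 0 to 1.62%, 1.30 to 6.09%, 0.340 to 1.83% and 0.351 to 1.36% in the 4 libraries, with Lmod1 and Synpo2 above Acta2 in most of them. The next genes above the limit were Ppp1r14a at a median of 2.16%, Cald1 at 2.77% and Cav1 at 3.34%, so the limit marks no gap. The basal keratin Krt17, which no gate used, stood at 0.645, 2.39, 0.603 and 0.801%. The part of RNA free in the suspension in these luminal levels was not tested, and no expression is read from them. The share was highest in the Zeb1 MSKO library at 8 weeks, the library with 63.3% basal cells among its epithelial-gated cells. Hormone-sensing-gated cells gave 16 of 31 members under the same limit, with a median of 0.383, 2.39, 0.627 and 0.592%.

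Pdlim3, Lpp, Ppp1r12b, Tln1, Vcl, Myl6, Tpm4, Csrp1, Tpm1 and Actn1 were well above that share in luminal progenitor-gated cells, at medians of 18.4 to 64.2% of the basal level. Pdlim3 was the clearest case of a gene shared by basal and luminal progenitor-gated cells and not by the other luminal class. It stood at 102, 196, 194 and 285 CPM in luminal progenitor-gated cells and at 2.39 to 11.4 CPM in hormone-sensing-gated cells, or 1.19 to 4.78% of the basal level. A Pdlim3 UMI was seen in 36.8 and 43.9% of thinned luminal progenitor-gated cells of the Zeb1 MSKO libraries at 8 and 9 weeks, in 19.9 and 32.6% of those of the controls, and in 0.775 to 2.31% of hormone-sensing-gated cells. Its log2 fold change between basal-gated and luminal progenitor-gated cells was the smallest of the 31 tested, at 0.67 (SE 0.24, edgeR adjusted p = 0.0238). Oxtr was also above the share of those 13 genes in luminal progenitor-gated cells, at 6.93, 39.6, 8.78 and 24.3% of the basal level, while in hormone-sensing-gated cells it stood at 0.545, 4.18, 0.646 and 0.987%. For Cav1 the order was turned: hormone-sensing-gated cells had 11 to 47.9 CPM and luminal progenitor-gated cells 1.32 to 6.68 CPM, without overlap.

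**Figure D3:**
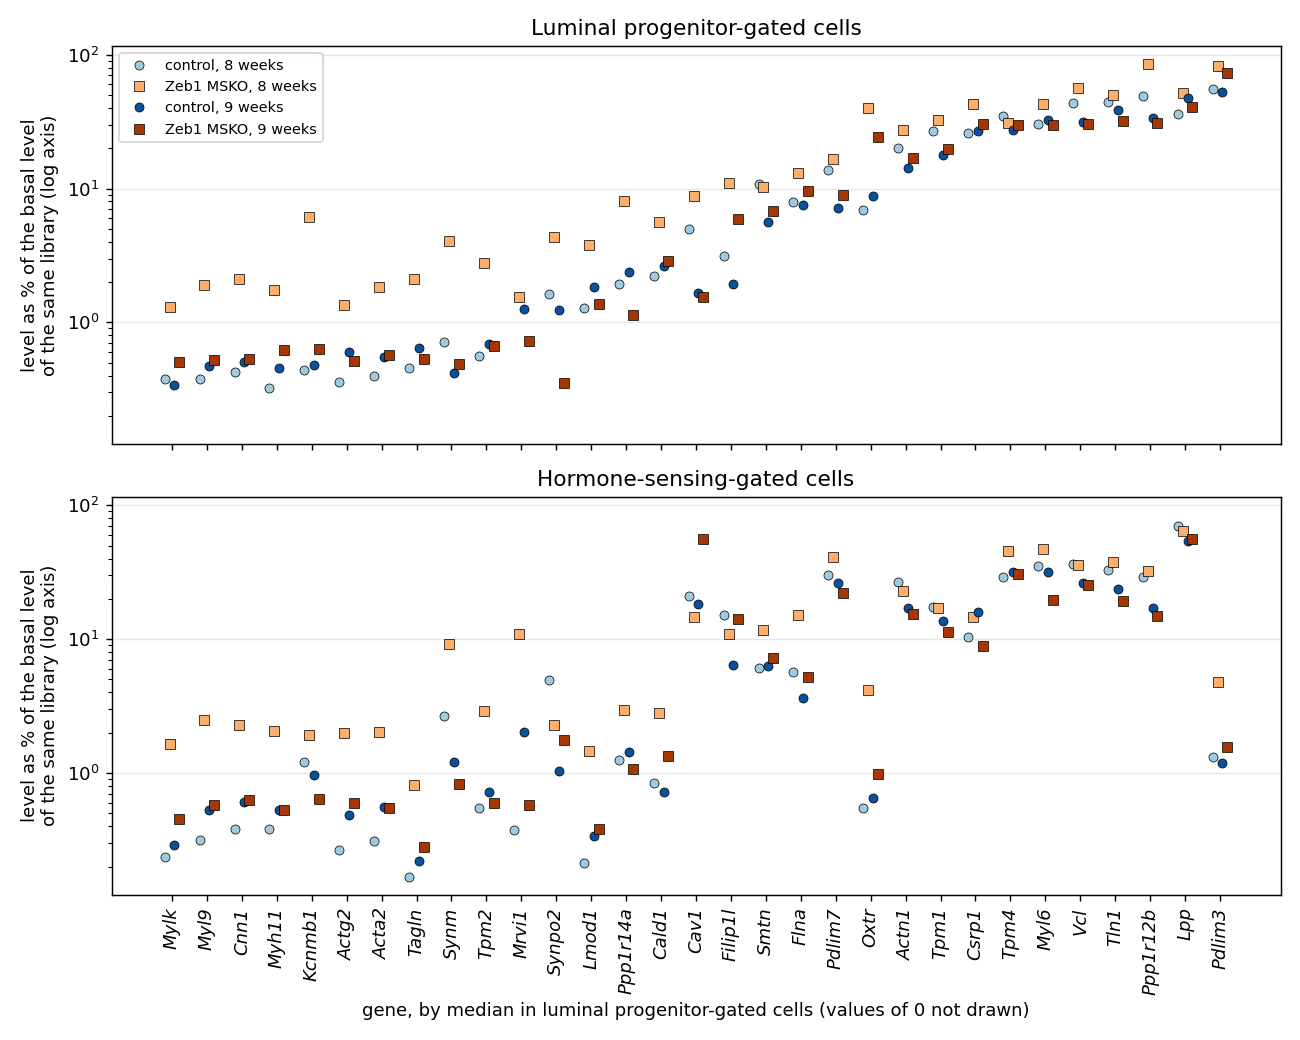
Level of 31 of the genes in luminal progenitor-gated (top) and hormone-sensing-gated cells (bottom) as a percentage (log axis) of the basal level in the same library, with 1 point per library. The genes at the left of the top panel have the lowest share, with Acta2 at 0.399 to 0.571% in 3 libraries and 1.85% in Zeb1 MSKO at 8 weeks, and those at the right rise to Pdlim3 at 52.3 to 82.1%.

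Muscle cells of vessels and of skeletal muscle differed from basal-gated cells in which members they held. The mural gate, for pericytes and vascular smooth muscle, held 13, 18, 2 and 10 cells, too few for a test. Its summed level of 28082 to 56930.3 CPM overlapped the basal range. Within it, Myl9 was at 2797 to 5980 CPM and Ppp1r14a at 155 to 1108 CPM, both above every basal library, while Cnn1 was at 155 to 580.4 CPM, below every basal library. Oxtr had 0, 1, 0 and 1 UMIs in mural-gated cells, where a count of 0 allows up to 46.4 CPM at 8 weeks and 232 CPM at 9 weeks in the controls, so the limit lay below the basal level at 8 weeks and above it at 9 weeks. The 7 and 11 skeletal muscle cells at 8 weeks had 16 and 10 of the 32 members at 0, with Tpm1 at 21816 and 17622 CPM and Tpm2 at 16935 and 16434 CPM, with 0 UMIs of Myl9 and of Myh11. The skeletal muscle cells held 87689 and 151512 UMIs in control and Zeb1 MSKO, so a count of 0 says little for members of low level. In the basal gate the 9 mural markers summed to 9.84 to 11.2 CPM, with Higd1b at 0 in all 4 libraries and Abcc9 at 0 in 3 of them.

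The comparison of Zeb1 MSKO with control basal-gated cells gave no member called. In edgeR's quasi-likelihood test, 0 of 31 tested members and 0 of 12697 genes (0%) passed an adjusted p of 0.05, with 66 genes (0.52%) under an unadjusted p of 0.05, and DESeq2 called 2 genes and no member. The median log2 fold change of the members was -0.22, against 0.01 for all genes, and 25 of the 31 were negative. Acta2 was at -0.27 (SE 0.33, edgeR adjusted p = 1) and Tagln at -0.45 (SE 0.33, edgeR adjusted p = 1). With age as a block, 0 genes were called by edgeR and 180 were under an unadjusted p of 0.05. The members' median was then -0.24, with 27 of 31 negative. The sign rested on 1 library: once the 8-week Zeb1 MSKO library was left out of the fit without a block, the members' median was 0.14 and 20 of 31 were positive. Within ages, with 1 library of each genotype and hence no test, the Zeb1 MSKO minus control log2 ratio had a median of -0.44 at 8 weeks, with 28 of 31 members negative and 51.2% of all genes negative. At 9 weeks the median was -0.02, with 18 of 31 negative and 50.4% of all genes negative.

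The 8-week difference was unequal over the members. The ratio was -2.07 for Actg2, -1.65 for Kcnmb1, -1.35 for Ppp1r14a, -1.11 for Tagln, -0.95 for Cnn1, -0.90 for Tpm2 and -0.87 for Acta2. It was -0.10 for Tpm4, -0.04 for Smtn and -0.02 for Lmod1, and 0.32 for Pdlim3. The first 7 of these were the lowest of the 31, and all but Ppp1r14a were among the 13 genes under 2% of the basal level in luminal progenitor-gated cells. At 9 weeks the same 7 genes had ratios from -0.06 for Ppp1r14a to 0.52 for Actg2. Markers of other cell types were measured in the same basal-gated cells. The 11 skin markers summed to 37.5 and 76.4 CPM in control and Zeb1 MSKO basal-gated cells at 8 weeks and to 48.4 and 45.3 CPM at 9 weeks, led in each library by Krt10 at 24.4 to 28.0 CPM, with Krt35 at 0 in the control library at 8 weeks. The 8 fibroblast markers summed to 206, 284, 270 and 211 CPM, with none at 0, and the sum was thus nearly as high in the 9-week control. In the genotype contrast 7 of the 8 were positive, with a median log2 fold change of 0.57 and none called by edgeR. The 3 skeletal muscle markers summed to 6.36, 23.1, 1.19 and 0.937 CPM, led by Acta1 at 3.81, 14.1, 1.01 and 0.885 CPM, with Ckm at 0 in the 9-week Zeb1 MSKO library. The 8 endothelial markers summed to 8.15, 16.9, 5.23 and 6.88 CPM. Skin, fibroblast, skeletal muscle and endothelial sums were thus all highest in the 8-week Zeb1 MSKO library. Other marker sums were not. The immune markers summed to 124, 70.9, 64.0 and 86.6 CPM and the luminal progenitor markers to 1758, 2268, 2413 and 3416 CPM. Hormone-sensing markers summed to 101, 112, 61.9 and 113 CPM, luminal markers to 1176, 1084, 1058 and 815 CPM. The mural sum was 10.5, 11.1, 11.2 and 9.84 CPM. The 10 immediate early genes did not single out that library, and summed to 3116, 3787, 3936 and 4678 CPM. The part of these cells, of the lower UMI count and of the cell makeup of that library in the result was not tested, and genotype cannot be told apart from preparation within an age.

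Over single basal-gated cells, the lower level of the 8-week Zeb1 MSKO library was seen at low, middle and high percentiles. Cells of 1 library are not replicates, and no test was made. Each basal-gated cell was thinned to 2500 UMIs, and the summed contractile UMIs were taken as a percentage of these. The median cell had 2.48, 1.64, 3.04 and 3.16% in the 4 libraries. The 5th percentile was 0.840, 0.560, 1.08 and 1.16%, and the 95th was 5.52, 3.92, 5.92 and 6.36%, so that low, middle and high cells were all lowest in the Zeb1 MSKO library at 8 weeks. Cells without an Acta2 UMI after thinning were 0.879, 3.57, 0.473 and 0.0443% of basal-gated cells. Cells under 0.5% were 1.57, 3.66, 0.631 and 0.221%.

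**Figure D4:**
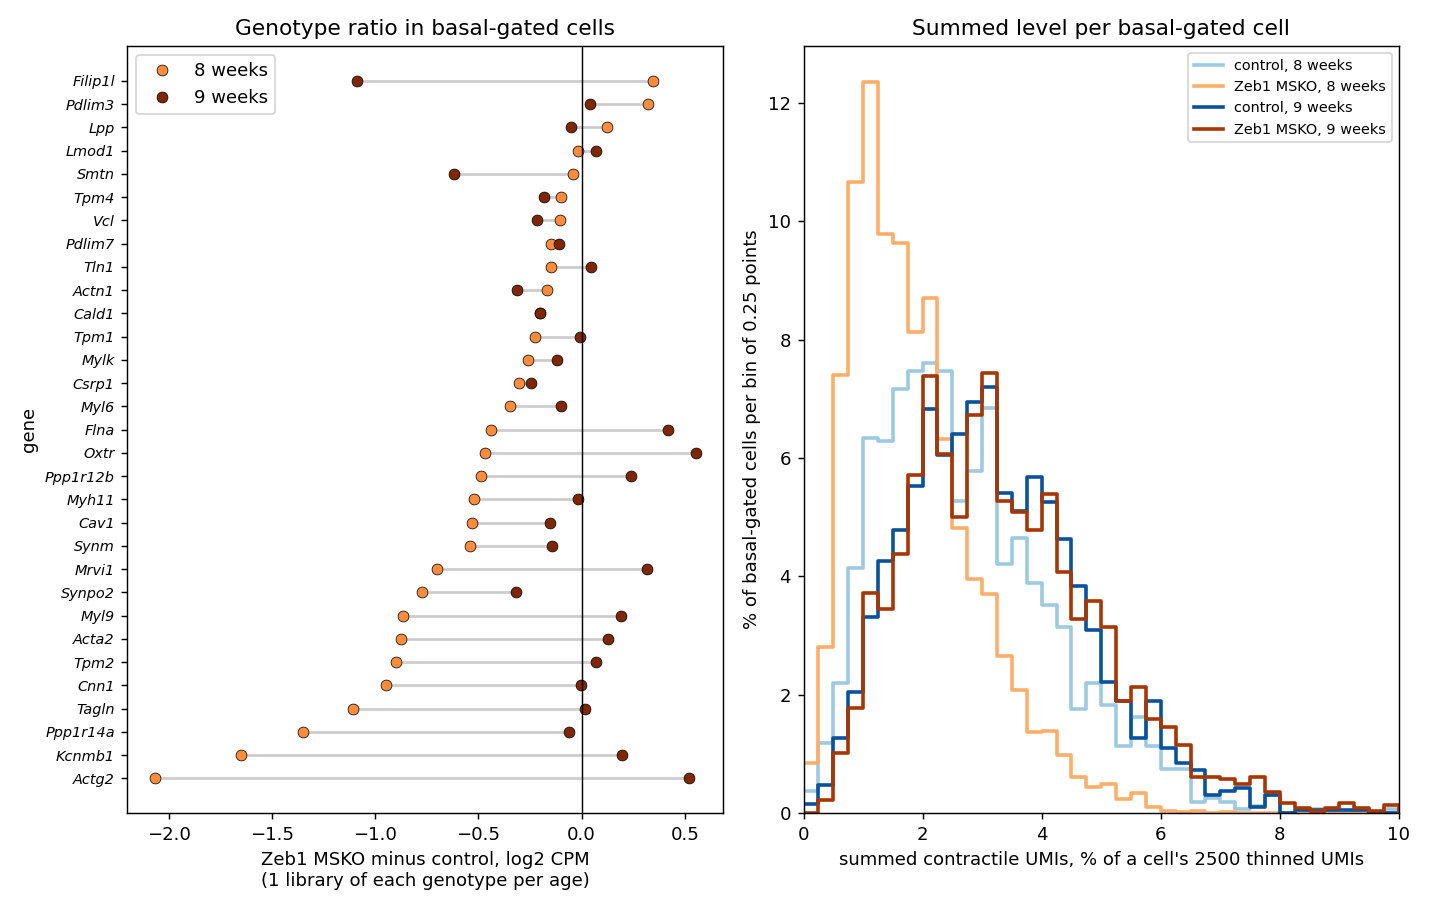
Left, the Zeb1 MSKO minus control difference in log2 CPM of each gene in basal-gated cells at 8 weeks (light) and 9 weeks (dark), 1 library of each genotype per age; right, the share of basal-gated cells (%) by summed contractile UMIs as a percentage of 2500 thinned UMIs, 1 line per library. The light points reach -2.07 for Actg2 and most dark points lie near 0, and the Zeb1 MSKO line at 8 weeks has its peak furthest to the left, with a median of 1.64%.

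In the luminal classes the genotype contrast was positive for most members, and again none was called. In luminal progenitor-gated cells, 22 of 27 tested members were positive with a median log2 fold change of 0.21, and 0 were called by edgeR (background 0%). Under an unadjusted p of 0.05 in edgeR were 3 of the 27 members and 181 of all genes (1.42%), and DESeq2 called 7 genes. In hormone-sensing-gated cells, 21 of 29 were positive with a median of 0.67, and 0 were called (background 0%). There, 7 of the 29 members and 481 of all genes (3.67%) were under an unadjusted p of 0.05 in edgeR, and DESeq2 called 40 genes. With the 8-week Zeb1 MSKO library left out, the hormone-sensing median was 0.08 with 17 of 30 positive, and with age as a block it was 0.36. The medians within ages were 0.62 and 0.05 in the former and 0.995 and 0.08 in the latter, at 8 and 9 weeks. The luminal share of the basal level described above was highest in the Zeb1 MSKO library at 8 weeks, and its part in these values was not tested. The difference of the genotype effect between basal-gated and luminal progenitor-gated cells was called for 0 of 31 members (background 0%), with a median of -0.51 and 9 members under an unadjusted p of 0.05 (background 3.83%). Against hormone-sensing-gated cells it was called for 0 of 31 (background 0.00714%), with a median of -0.64 and 12 members under an unadjusted p of 0.05 (background 3.81%). Both rested on which libraries entered: leaving out the 9-week Zeb1 MSKO library, 9 and 14 members passed, all lower in the basal gate, among 115 of 14164 and 190 of 14409 genes called. With the 8-week Zeb1 MSKO library left out 0 and 1 members did, among 0 of 14028 and 256 of 14434 genes.

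In luminal progenitor-gated cells, several members had a Zeb1 MSKO minus control log2 ratio of the same sign at both ages. Myh11 (1.82 and 0.45) and Filip1l (2.08 and 0.53) were positive at 8 and 9 weeks. Tpm4 and Smtn were negative at both, and others, such as Cald1, changed sign. Oxtr was also positive at both ages. Its level was 5.06 and 21.9 CPM in control and Zeb1 MSKO at 8 weeks, and 11 and 45.8 CPM at 9 weeks. Both Zeb1 MSKO libraries were thus above both control libraries, an order that Pdlim3 also had and that was not counted over all genes. The Oxtr log2 ratio was 2.01 at 8 weeks and 2.04 at 9 weeks. A UMI was seen in 1.27, 5.61, 2.59 and 10.3% of thinned luminal progenitor-gated cells, against 0, 0.712, 0.211 and 0.585% of hormone-sensing-gated cells, which had more UMIs per cell before thinning. Without thinning the former were 4.16, 14.9, 8.71 and 26.6%. The log2 fold change was 2.05 (SE 0.51, unadjusted p = 0.00492), but the adjusted p of edgeR over 12702 genes was 1, so the difference did not pass the test. In basal-gated cells the Oxtr ratio was -0.47 at 8 weeks and 0.55 at 9 weeks, with no call. The basal minus luminal progenitor difference of the genotype effect was -1.98 (SE 0.27, unadjusted p = 0.000115) and did not pass either (edgeR adjusted p = 0.847).

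Between the ages, most members had a positive difference at 9 weeks in basal-gated cells, and 1 passed the test. This was Synm (ENSMUSG00000030554, chr7:67730160-67759742, minus strand), at 23.4 and 16.8 CPM at 8 weeks and 59.6 and 55.2 CPM at 9 weeks, with a log2 fold change of 1.46 (SE 0.24, edgeR adjusted p = 0.0446). In all, 5 of 12697 genes (0.0394%) were called higher and 150 (1.18%) lower, or 1.22% in either direction. Of the 31 tested members, 11 were under an unadjusted p of 0.05, as were 19.3% of all genes. The difference was positive for 28 and the median log2 fold change was 0.53, against 0.01 for all genes. Mylk (0.99, SE 0.18, edgeR adjusted p = 0.0639), Mrvi1 (1.56, SE 0.29, edgeR adjusted p = 0.0639), Lmod1 (0.82, SE 0.18, edgeR adjusted p = 0.0850) and Oxtr (1.23, SE 0.27, edgeR adjusted p = 0.0854) did not pass, although both 9-week libraries lay above both 8-week libraries for each. How many of all genes had that order was not counted. The control libraries alone gave a median log2 ratio of 0.32 with 25 of 31 positive, and the Zeb1 MSKO libraries alone 0.89 with 27 of 31 positive. When the 8-week Zeb1 MSKO library was left out, no member was called by edgeR, 8 were under an unadjusted p of 0.05 and the median was 0.27. When the 8-week control library was left out, 9 members were called higher, among 23 of 13364 genes called higher and 205 lower. DESeq2 called 8 members higher with all 4 libraries, among 119 of 12697 genes called higher and 512 lower. The cell makeup differed between the ages as well, with fibroblast-gated cells numbering 387 and 536 in the 8-week libraries but 26 and 31 in the 9-week ones, and 3 of 8 fibroblast markers were called lower at 9 weeks in basal-gated cells. Of the 3 skeletal muscle markers 1 was called lower, Tnnt3, and the median log2 fold change of the 3 was -5.47. The 5 tested endothelial markers were all negative, with a median of -0.89 and none called by edgeR. The part of this in the result was not tested, and age cannot be told apart from preparation.

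Within a library, most of the abundant members varied together from cell to cell. For each member, Spearman's rho with the summed UMIs of the other members was taken over the thinned basal-gated cells of 1 library, and the median over the 4 libraries is given, as a description of cells that share a library. It was 0.80 for Acta2, 0.73 for Tagln, 0.70 for Tpm2, 0.66 for Cnn1, 0.60 for both Myl9 and Myl6, 0.58 for Actg2 and 0.52 for Csrp1. The value for Acta2 moved only from 0.79 to 0.82 between libraries. Mylk and Myh11 followed at 0.43 each, Cald1 at 0.39 and Tpm1 at 0.37. The anchors ran from 0.25 for Pdlim3 to 0.06 for Filip1l, and Oxtr stood at 0.11. Low values were not particular to the anchors, with Tpm4 at 0.16, Lmod1 at 0.15 and Smtn at 0.07. Tpm4 was low although its mean basal level, 428 CPM, was close to the 427 CPM of Myh11. The median was 0.25 over the 25 members with at least 50 CPM and 0.00 over the 2410 other genes above that level, whose 5th and 95th percentiles were -0.08 and 0.08. Sparse genes give low values at this depth whatever their true relation. No reading is therefore made of the low values of the sparser members, such as Oxtr, Filip1l, Kcnmb1 (0.15), Mrvi1 (0.07) or Ppp1r12b (0.07). By pairs, Acta2 and Tagln were the most alike, at 0.68 (0.62 to 0.68 over the libraries), followed by Acta2 and Tpm2 at 0.65.

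Genes outside the list also varied with it. The 10 highest among the 2410 were Dstn, or destrin, an actin severing protein (0.46), Pfn1, or profilin (0.37), the actin-sequestering Tmsb4x (0.34), the matrix protein Postn (0.32), Igfbp2 (0.31), S100a6 (0.29), Fbxl22 (0.27), the keratin Krt17 (0.27), the cytoplasmic actin Actg1 (0.26) and Cotl1 (0.26). The 3 lowest were Chil1 (-0.32), the secreted inhibitor Slpi (-0.31) and Id3 (-0.24). The summed Krt5 and Krt14 that made the gate had 0.04. Values that may be technical moved with the sum too: the UMIs of the cell before thinning at 0.39, the 10 immediate early genes at -0.18 and the mitochondrial genes at -0.17, and their part in the co-variation was not tested.

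**Figure D5:**
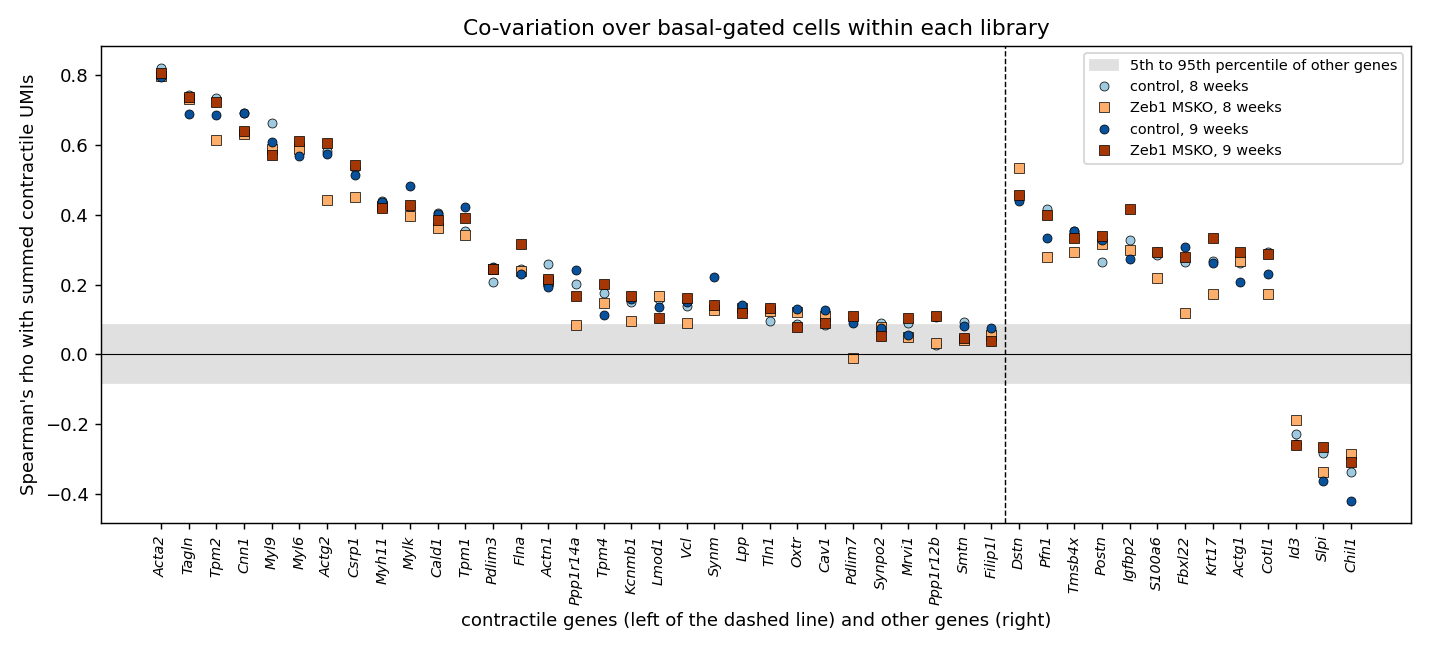
Spearman's rho of each gene with the summed contractile UMIs (the gene itself left out) over thinned basal-gated cells, 1 point per library, for 31 members (left of the dashed line) and 13 other genes (right); the grey band spans the 5th to 95th percentile of 2410 other genes. Acta2 lies near 0.80 in all 4 libraries, and Chil1, Slpi and Id3 lie below the band.

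Other genes of the pathway differed between basal-gated and luminal progenitor-gated cells in both directions. Of 20 other actin and myosin genes, 18 were tested against luminal progenitor-gated cells by edgeR, and 12 were higher and 2 lower in basal-gated cells, where 28.1% of all genes were higher and 28% lower. Cnn2, a second calponin, was higher with a log2 fold change of 3.43 (SE 0.25, adjusted p = 1.29e-08), and Myl12b, a non-muscle light chain, lower at -1.64 (SE 0.14, adjusted p = 1.08e-07). Of 16 focal adhesion genes, 10 were higher and 1 lower, led by Tns1, or tensin, at 4.52 (SE 0.20, adjusted p = 6.95e-11). Of 14 SRF cofactors and regulators, 8 were higher and 2 lower. Elk3, a ternary complex factor that binds with SRF, was higher at 2.09 (SE 0.18, adjusted p = 7.84e-08), and Klf4 lower at -1.52 (SE 0.30, adjusted p = 0.000401). Of 18 calcium and oxytocin signalling genes, 9 were higher and 2 lower against luminal progenitor-gated cells, with Prkg1, the cGMP-dependent kinase, at 3.29 (SE 0.22, adjusted p = 4.34e-09) and the store calcium channel Itpr2 at -2.51 (SE 0.23, adjusted p = 1.36e-07). In the genotype contrast in basal-gated cells no gene of these 4 lists was called (background 0%, with 0.52% under an unadjusted p of 0.05 in edgeR and 2 genes called by DESeq2).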

How the data were processed

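Single-cell RNA-seq was made with 10x Genomics 3′ chemistry, and the deposited matrix holds UMI counts per gene and cell that the authors made with Cell Ranger 2.1.0 on mm10, per the submitters' processing notes. The counts are whole numbers and cover all 4 libraries in 1 matrix, with each cell's library read from the end of its barcode. No source used here says whether depth was equalised on joining the libraries. The genes and lists were chosen with earlier results of these data known.

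Cells needed 500 genes and at most 10% mitochondrial UMIs. Scrublet doublets (3.74 to 6.59% per library) were removed, leaving 34672 of 36884 barcodes. Classes were gated on marker UMIs per 10000: Krt5 and Krt14 at 10 or more for basal, Krt8 and Krt18 at 20 or more for luminal, and listed markers for the others. A total of 1136 cells passed several gates and 1398 passed none, and both were left out.

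UMIs were summed per class and library and tested with edgeR 4.0.16 (TMM, quasi-likelihood, Benjamini-Hochberg, called at an adjusted p under 0.05), with DESeq2 1.42.0 as an alternative. Class comparisons and differences of effects had the library as a block. Mural and endothelial classes had fewer than 20 cells in a library and were not tested. Co-variation and detection used cells thinned to 2500 UMIs, a number that every barcode reached (minimum 2566). The fits were tested on simulated data. Intervals and floors (3 counts) cover counting error only. Values in every library are printed for genes averaging 50 CPM or more in basal-gated cells, for Oxtr, Kcnmb1, Mrvi1, Myocd and Cav1, and for Synm, which was named because it was called. Pathway genes are named by the largest called change in each direction among those averaging at least 10 CPM. Results for 1 further gene list are not reported here. Alternatives were other normalisation, no count filter, doubled gates, no doublet removal, no thinning, an added block, and each library left out. The added block was age in the genotype tests and genotype in the age test.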

Additional observations from a re-analysis of the deposited data

Results flagged for a closer look

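In basal-gated cells, 14 of the genes had a Zeb1 MSKO minus control log2 ratio of opposite sign at 8 and 9 weeks. With 1 library per genotype and age, these differences were not tested. The 9-week ratio minus the 8-week ratio was 2.59 for Actg2, 1.84 for Kcnmb1, 1.13 for Tagln, 1.06 for Myl9, 1.02 for Oxtr, 1.02 for Mrvi1, 1.005 for Acta2, 0.97 for Tpm2, 0.86 for Flna, 0.73 for Ppp1r12b, 0.19 for Tln1 and 0.0877 for Lmod1. It was -0.17 for Lpp and -1.43 for Filip1l, the 2 genes that were higher in Zeb1 MSKO at 8 weeks and lower at 9 weeks.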

How the results depend on the processing

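Of 253 recomputed main values and counts, 208 stayed within a set limit, and of 1370 recomputed single-gene values 1303 kept direction and call, 10 lost it, 38 gained it and 19 changed sign. The limit was a fixed ratio for a count, and for a median the standard deviation between ages or libraries. That limit is wide. It was 0.65 for the hormone-sensing genotype median, whose move from 0.67 to 0.08 without the 8-week Zeb1 MSKO library thus counted as within it. The cause of each change was not tested. Under DESeq2 the genes called were 2 for genotype in basal-gated cells, 7 in luminal progenitor-gated cells and 40 in hormone-sensing-gated cells, 631 for age (8 members), and 1 (1 member) and 17 for the differences of the genotype effect against luminal progenitor-gated and hormone-sensing-gated cells. With no filter on low counts they were 44, 80 (1 member), 1466 for age (16 members), and 2 (1 member) and 121 (8 members) for the differences. With age as a block, genotype gave 1 and 2 genes in the luminal classes. With genotype as a block, age gave 237 (2 members). Without the library block, the difference against hormone-sensing-gated cells gave 0. The labels do not say that libraries of the same age share a litter, and deviations correlated at 0.37 for the 9-week minus 8-week differences and at -0.28 for the genotype differences. The doubled gates gave 2 members for age and 0 genes for the difference against hormone-sensing-gated cells. Without thinning the median rho was 0.42 in place of 0.25. Leaving out each library in turn gave 0 to 2 genes for genotype in basal-gated cells with members' medians of -0.51 to 0.14, and 0 to 9 in luminal progenitor-gated cells. It gave 48 to 776 for age (0 to 9 members), 0 to 115 (0 to 9 members) and 30 to 256 (0 to 14 members) for the differences, and a members' median of 3.23 to 4.10 against fibroblast-gated cells. The genotype values that changed sign ranged from -0.92 to 0.19 for Acta2, -1.88 to 0.32 for Actg2, -0.91 to 0.25 for Myl9, -0.96 to 0.14 for Tpm2, -1.03 to 0.0883 for Cnn1, -0.76 to 0.19 for Myh11, -0.87 to 0.87 for Oxtr and -0.84 to 0.13 for Filip1l. The age values that did ranged from -0.0894 to 1.97 for Actg2, -0.045 to 0.29 for Myl6, -0.025 to 1.07 for Tagln, -0.27 to 0.36 for Smtn, -0.29 to 0.23 for Cav1, -0.23 to 0.0948 for Actn1 and -0.30 to 0.80 for Filip1l.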
